A study of Mus musculus with 8 samples.

Results

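The genes described here are the 4 receptors of the fibroblast growth factor (FGF) family, Fgfr1, Fgfr2, Fgfr3 and Fgfr4, and 5 FGF ligands, Fgf2, Fgf8, Fgf9, Fgf10 and Fgf18. They were taken by symbol, as 9 of the 32285 features counted, in a choice made with earlier results of these data known. FGF ligands are secreted proteins that bind receptor tyrosine kinases at the cell surface together with heparan sulfate, and the bound receptors signal through adaptors, the RAS and MAP kinase cascade and ETS transcription factors. In the growing skeleton, FGFR3 is known to restrain chondrocyte proliferation, FGFR1 and FGFR2 act in osteoblasts and their precursors, and FGF9 and FGF18 are ligands made around cartilage. FGF10 acts mainly from mesenchyme on epithelia that carry an FGFR2 isoform, and FGF8 is a patterning signal of early embryos and of the developing hindbrain.

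The samples were nuclei from the petrous temporal bone (PTB), which houses the inner ear, and from the paraflocculus/flocculus (PF/F), the lobules of the cerebellum that sit in a fossa of that bone. Both tissues came from wild-type (WT) mice and from Tbx1+/- littermates aged postnatal day 5.5. The study asked how loss of 1 copy of Tbx1, a transcription factor gene, altered the bone and the neighbouring brain. The 4 groups, PTB WT, PTB Tbx1+/-, PF/F WT and PF/F Tbx1+/-, had 2 libraries each, every library a pool of 5 mice, male and female, on a C57/BL6 background. The Tbx1 deletion was carried in the germ line by all cells of the animal, so a difference in one tissue need not have begun there, and pooling hid the spread between mice. Replicate 1 and replicate 2 were separate batches of animals, and p-values measured only the spread between these libraries.

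Levels are unique molecular identifiers (UMIs, counted RNA molecules) summed over the nuclei of 1 annotated cell type in 1 library, per 1000000 UMIs of those nuclei (CPM, counts per 1000000). The cell type labels deposited with the counts gave 15 types in the PTB, among them 4 connective tissue (CT) and 6 chondrocyte progenitor (CP) subtypes, and 16 types in the PF/F. Annotated nuclei numbered 31076 in the PTB, 5981 to 9977 per library with 33515253 to 43752949 UMIs, and 48237 in the PF/F, 9153 to 13835 per library with 37700625 to 52902902 UMIs. Any pair of libraries shared 11 to 60 annotated barcodes, at most 0.503% of the smaller library. The 4 osteoclast markers summed to 7191 CPM in osteoclasts and to 724 to 2068 CPM in the other 14 types, and the 6 osteoblast markers to 22314 CPM in osteoblasts but still to 4532 CPM in osteoclasts, so markers of 1 type were counted in nuclei of others, and the part of free RNA or doublets in that was not tested. The level in osteoclasts, or in immune cells of the PF/F, is given beside the members' levels. Tbx1 itself was at 38.9 and 39.4 CPM in the WT PTB libraries and at 26.3 and 35.7 CPM in the Tbx1+/- PTB libraries, with no overlap and a log2 fold change of -0.34 ± 0.17 (SE; edgeR adjusted p = 1.00). In the PF/F, Tbx1 had 4 to 13 UMIs per library. Values below are given in the order WT 1, WT 2, Tbx1+/- 1 and Tbx1+/- 2, and ± is the SD over these 4 libraries unless named otherwise.

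Promoter sequence is shown for 4 members, with no base of any annotated exon. Fgfr4 and Fgf10 are shown as a receptor and a ligand with a steep bone pattern, Fgf18 for the highest GC content of the windows found, and Fgfr2 for its annotated span. The sequences are from RefSeq on GRCm38.p6 and run 5′ to 3′ on the gene's strand, and capitals mark GGGCGG or its reverse complement CCGCCC, the core of the GC box bound by SP1.
Fgfr4, chr13:55152568-55152639, plus strand: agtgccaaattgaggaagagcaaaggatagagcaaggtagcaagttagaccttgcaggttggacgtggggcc
Fgf10, chr13:118714449-118714698, plus strand: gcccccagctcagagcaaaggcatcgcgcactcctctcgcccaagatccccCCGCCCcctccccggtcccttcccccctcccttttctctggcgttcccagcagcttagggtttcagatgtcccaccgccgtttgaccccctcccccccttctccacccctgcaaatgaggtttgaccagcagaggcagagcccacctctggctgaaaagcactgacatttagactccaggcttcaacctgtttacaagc
Fgf18, chr11:33147401-33147650, minus strand: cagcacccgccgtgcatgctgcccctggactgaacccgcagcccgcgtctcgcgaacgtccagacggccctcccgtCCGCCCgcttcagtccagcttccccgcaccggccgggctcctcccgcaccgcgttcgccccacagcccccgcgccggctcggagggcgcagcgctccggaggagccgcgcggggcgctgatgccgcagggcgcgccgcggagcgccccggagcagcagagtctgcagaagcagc
Fgfr2, chr7:130266809-130267058, minus strand: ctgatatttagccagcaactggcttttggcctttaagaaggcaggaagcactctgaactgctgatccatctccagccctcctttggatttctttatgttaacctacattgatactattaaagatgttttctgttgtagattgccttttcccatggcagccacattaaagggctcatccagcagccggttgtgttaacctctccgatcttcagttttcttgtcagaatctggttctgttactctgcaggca
The 250 bases before the start site of Fgfr2 had a GC content of 44.0%, against 61.2% for Fgf10, 64.0% for Fgfr4 and 77.2% for Fgf18. The letters GGGCGG, read on both strands, stood in 32.7% of the 32851 RefSeq windows of that length, 2 times in the Fgfr4 window (in exonic bases not printed), 1 time each in those of Fgf10 and Fgf18, and nowhere in that of Fgfr2. TGTGGT, a core bound by RUNX factors, was present in 14.045% of all windows and ACAAAG, a core bound by SOX factors, in 16.5%. Neither stood in the windows found for Fgfr2, Fgfr3, Fgfr4, Fgf2, Fgf9, Fgf10 and Fgf18, which says only that these letters were not in these bases. Promoters of Fgfr1 and Fgf8 were not analysed here.

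The members differ widely in length, and reads from introns were counted, so a longer gene may give more UMIs for the same number of transcripts. The coordinates are those of GENCODE vM21 on GRCm38. Fgfr1 lies at chr8:25513654-25575718 on the plus strand and spans 62.1 kb, Fgfr3 at chr5:33721674-33737068 on the plus strand and spans 15.4 kb, and Fgfr4 at chr13:55152640-55168759 on the plus strand and spans 16.1 kb. Fgf2 lies at chr3:37348346-37410108 (plus strand), Fgf8 at chr19:45736798-45742915 (minus strand), Fgf9 at chr14:58070547-58112720 (plus strand), Fgf10 at chr13:118669791-118792115 (plus strand) and Fgf18 at chr11:33117430-33147400 (minus strand). Introns took 53.5% of the span of Fgfr3 and 77.9% to 96.2% of those of the other 7 genes named here. Fgfr2, at chr7:130162451-133123350 on the minus strand, was annotated with a span of 2961 kb because 1 of its 27 transcripts, a protein-coding one, runs past chr7:130266263, where the others end after 103.8 kb. That span holds 48 other counted genes, 22 of them on the same strand. These 22 genes summed to 190 to 287 CPM over the PTB types, where Fgfr2 was at 533 to 2453 CPM, and their sum had r = 0.422 with Fgfr2 across the 15 types, which share libraries. Over the PF/F types they summed to 159 to 400 CPM, with r = -0.639 across the 16 types. Apart from those in the span of Fgfr2, counted genes on the opposite strand overlap Fgfr1 (Gm16159), Fgf2 (Fgf2os and Nudt6) and Fgf10 (Gm16263). These partners were counted as genes of their own. The sources used here do not state how strand was handled, and whether reads of a partner entered a member's count was not tested.

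Among the receptors, Fgfr1 was highest in mature osteoblasts and osteocytes, Fgfr2 in CT3, Fgfr3 in mature chondrocytes and Fgfr4 in CP5, so that each receptor peaked in a different PTB type (plot of receptor levels). Cell types were made by clustering on expression in the same nuclei, so differences between types are described without a test. Neighbours in an order of levels are said to overlap where the ranges of their 4 libraries do, which is a description, and types were not compared in pairs within a library unless stated.

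**Figure D1:**
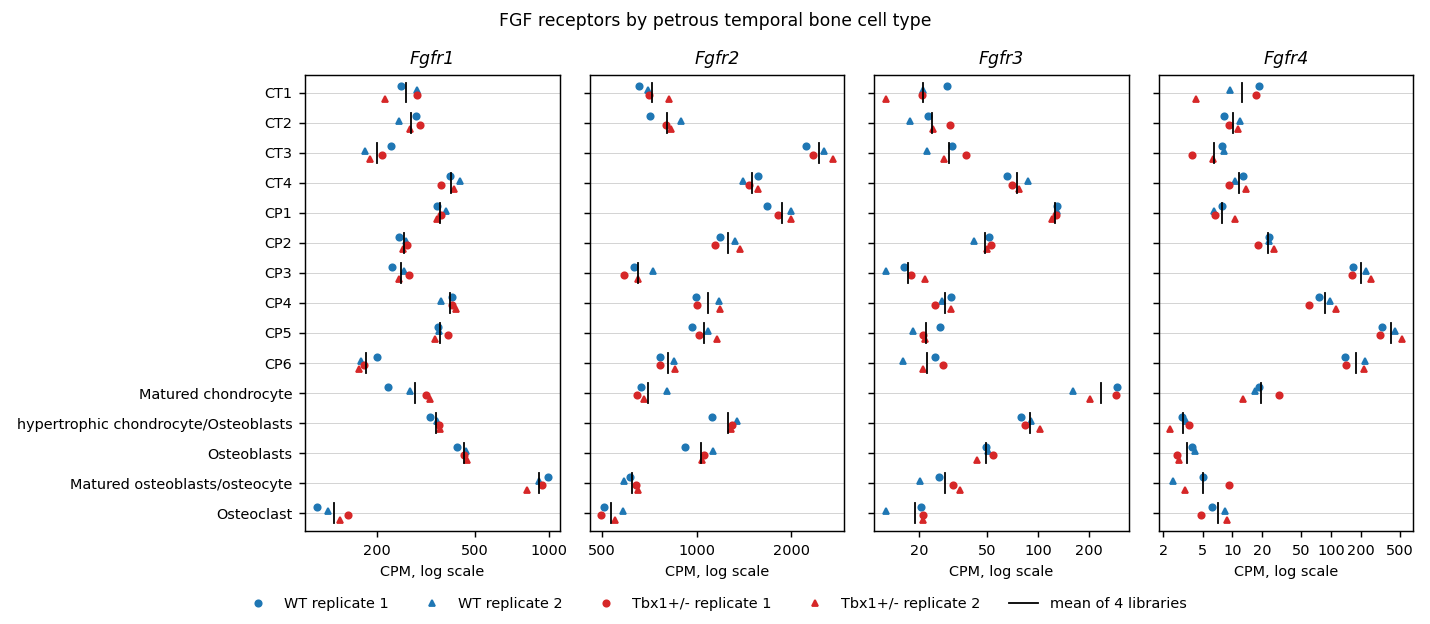
Level of each FGF receptor (CPM, log scale) in the 15 annotated petrous temporal bone cell types, with 1 point per library (circle, replicate 1, triangle, replicate 2, blue, WT, red, Tbx1+/-) and a bar at the mean of 4 libraries. Fgfr1 stands apart in mature osteoblasts/osteocytes (916 CPM), Fgfr2 in CT3 (2453 CPM), Fgfr3 in mature chondrocytes (235 CPM) and Fgfr4 in CP5 (406 CPM).

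Fgfr1, a receptor known for wide expression in mesenchyme, was at 995, 912, 941 and 818 CPM in mature osteoblasts/osteocytes (916 ± 74.0). All 4 libraries of this type lay above all libraries of the other 14 types. Osteoblasts followed at 451 ± 18.5 CPM, then CT4 at 401 ± 30.1 and CP4 at 398 ± 23.6, and these neighbours overlapped in range. Compared within libraries, osteoblasts were above CT4 in 4 of 4, and CT4 was above CP4 in 1. The next gaps in the order lay low, below CP3 (251.2 CPM) and below CP6 (179 CPM), and osteoclasts were lowest at 133 ± 16.8 CPM, 6.89-fold under the highest type. Of the UMIs of the 4 receptors in mature osteoblasts/osteocytes, Fgfr1 took 58.2 ± 2.87%, against 22.1 ± 1.20% over all annotated PTB nuclei. Such shares compare 1 gene between types and not genes with each other, because of their lengths.

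Fgfr2, whose isoforms serve bone precursors and epithelia, was at 2228, 2537, 2339 and 2709 CPM in CT3 (2453 ± 213). No library of another type reached these values. CP1 (1869 ± 159 CPM) and CT4 (1503 ± 82.4 CPM) came next, each wholly above the type after it, and the hypertrophic chondrocyte/osteoblast type (1261 ± 95.7) and CP2 (1256 ± 108) overlapped. Mature osteoblasts/osteocytes, the peak of Fgfr1, were next to last for Fgfr2 at 623 ± 28.9 CPM, above osteoclasts at 533 ± 38.9 CPM. Fgfr2 took 91.1 ± 1.56% of receptor UMIs in CT3. Of 3 Purkinje cell markers, which summed to 2843 CPM in CT3 and no higher elsewhere in the PTB, Foxp2 gave 2835 CPM, whereas Calb1 was at 1.83 and Car8 at 6.42 CPM. The level of Fgfr2 per kb in the PTB was between 5.13 and 23.6 CPM across the types with the shorter span of 103.8 kb. Over the annotated span it was far lower.

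Fgfr3, a brake on chondrocyte growth, was at 292, 160, 288 and 201 CPM in mature chondrocytes (235 ± 65.3, 426 UMIs in all). Both replicate 2 libraries were the lower ones, and all 4 still lay above every library of every other type. Haemoglobin genes (4 markers of red blood cells) summed to 13257 CPM in the lowest of these libraries, WT 2, and to 905 to 1180 CPM in the other 3, and their part in the level was not tested. CP1 (126 ± 4.08 CPM) was wholly above the hypertrophic chondrocyte/osteoblast type (89.3 ± 9.68 CPM). That type overlapped in range with CT4 (74.8 ± 9.43 CPM) but was above it within 4 of 4 libraries. Osteoblasts (49.4 CPM) and CP2 (49.0 CPM) overlapped with each other and lay wholly above the remaining 9 types. Those 9 had mean levels of 17.1 to 29.8 CPM, a range that includes osteoclasts at 18.8 ± 4.02 CPM. CP5, the peak of Fgfr4, was among them with 22.0 ± 3.36 CPM.

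Fgfr4 had the steepest pattern of the receptors, 129-fold between its highest and lowest type. It was at 331, 450, 318 and 523 CPM in CP5 (406 ± 98.3), which held 38.2% of its UMIs. CP3 was at 168, 228, 165 and 254 CPM (204 ± 44.6) and CP6 at 139, 220, 144 and 219 CPM (180 ± 45.2), and these CP types overlapped in range. Compared within libraries, CP3 was above CP6 in 4 of 4. CP5 lay wholly above both, and both lay wholly above CP4, at 75.4, 96.9, 59.3 and 114 CPM (86.3 ± 23.9). CP2 (23.0 CPM) and mature chondrocytes (19.6 CPM) were far below, osteoclasts were at 7.10 CPM, and the hypertrophic chondrocyte/osteoblast type was lowest at 3.13 CPM.

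The spread of Fgfr4 within CP3, CP4, CP5 and CP6 followed the batch. In these 4 types the replicate 2 library was 1.29- to 1.58-fold above replicate 1 in WT and 1.52- to 1.92-fold above it in Tbx1+/-, whereas Tbx1+/- over WT within a batch was 0.787 to 1.17. Tbx1 was highest in CP6 (81.8 CPM) and CP5 (76.3 CPM), as Fgfr4 was high in both, but CP3, second for Fgfr4, had only 8.10 CPM of Tbx1. Over the 15 types r of Fgfr4 with Tbx1 was 0.317, at rank 3190 of 13125 genes, and for the other members with enough counts r was between -0.176 and 0.273. In CP6, 4 muscle marker genes summed to 1181 CPM (1148 to 1234), against 77.1 to 804 CPM in the other 14 types. There, 3 neuron marker genes summed to 1660 CPM (1565 to 1825, against 19.8 to 417 CPM), beside 1082 CPM of 4 chondrocyte genes. How many genes of each list gave these CP6 sums was not examined. In CP3, second for Fgfr4, 3 astroglia genes summed to 1480 CPM, the most of any PTB type, almost all of it Slc1a3 (1455 CPM), with Aqp4 at 4.24 CPM and Gdf10 at 21.0 CPM. The part of these in the level of Fgfr4 was not tested. Without Fgfr2 in the sum, a choice made after the data were seen, Fgfr4 took 50.9 ± 6.98% of the remaining receptor UMIs in CP5, 46.7 ± 8.18% in CP6 and 42.8 ± 5.49% in CP3, against 10.7 ± 2.15% over all annotated PTB nuclei.

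Levels of different genes are given per kb of gene span, and whether UMIs scale with span in these libraries was not tested. On this scale the PTB peak of Fgfr4 in CP5 was 25.2 CPM, that of Fgfr3 in mature chondrocytes 15.3 CPM and that of Fgfr1 in mature osteoblasts/osteocytes 14.8 CPM. In CP5, Fgfr1 was at 5.83 CPM per kb. Fgfr2 in CT3 was at 23.6 CPM per kb if the span shared by its other transcripts is used. Over its annotated span of 2961 kb the value is far lower. Which span was counted is not known, so the place of Fgfr2 among the receptors on this scale is not known either. The highest PTB ligand was Fgf10 in CT1 at 1.08 CPM per kb. Of the PF/F ligands, Fgf8 in GNP was at 1.94 and Fgf9 in differentiated granule neurons at 1.73 CPM per kb.

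Of the ligands, Fgf2 and Fgf10 were highest in CT1, Fgf9 in mature osteoblasts/osteocytes and Fgf18 in CP2 and CT1, and Fgf8 was at or near 0 (plot of ligand levels). CT1 is the connective tissue subtype with the highest sum of 4 connective tissue markers, 4109 CPM.

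**Figure D2:**
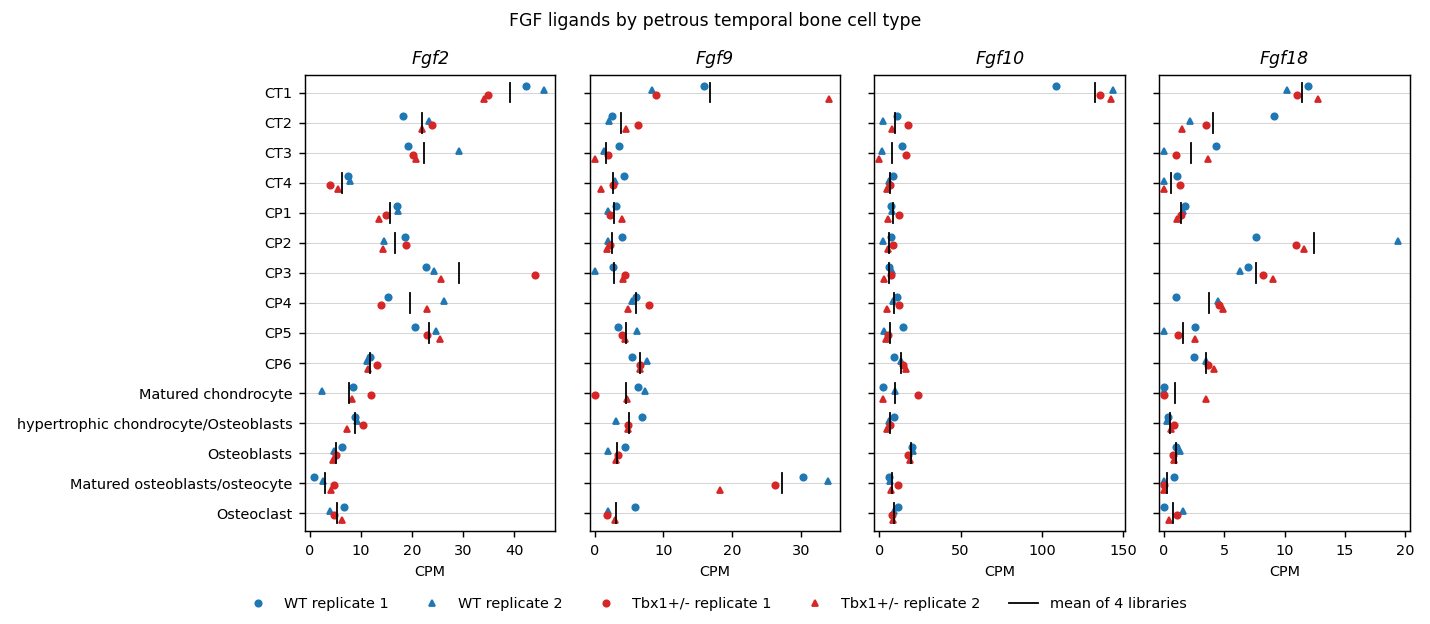
Level of 4 FGF ligands (CPM) in the 15 annotated petrous temporal bone cell types, with 1 point per library (circle, replicate 1, triangle, replicate 2, blue, WT, red, Tbx1+/-) and a bar at the mean of 4 libraries. Fgf10 in CT1 (133 CPM) stands apart from all other types, and Fgf9 in CT1 ranges from 8.27 to 34.0 CPM between libraries.

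Fgf10 was at 108, 144, 136 and 142 CPM in CT1 (133 ± 16.5), which held 47.0% of its UMIs. Every CT1 library lay above every library of the other 14 types, and CT1 was 22.7-fold above the lowest type. Osteoblasts were second at 20.3, 20.6, 17.5 and 18.8 CPM (19.3 ± 1.42), with both Tbx1+/- libraries below both WT libraries and all 4 above CP6 (13.2 ± 3.12 CPM). The remaining types had means at or under 9.53 CPM, and osteoclasts were at 9.005 ± 1.60 CPM. Single libraries of mature chondrocytes (up to 24.0 CPM, 11 UMIs over all libraries) and of CT2 (up to 17.6 CPM) still reached the osteoblast range. The CT1 level rested on unequal numbers of nuclei, 1315, 332, 878 and 118, or 13.2%, 5.55%, 10.1% and 1.84% of a library's annotated nuclei.

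Fgf2, a ligand without a classical secretion signal, was at 42.4, 45.8, 34.8 and 34.0 CPM in CT1 (39.2 ± 5.79). Both Tbx1+/- libraries were below both WT libraries. CP3 had 22.7, 24.2, 44.0 and 25.6 CPM (29.1 ± 10.0), so that 1 Tbx1+/- library of CP3 reached into the CT1 range. CP5 (23.4 ± 2.20), CT3 (22.3 ± 4.56) and CT2 (21.8 CPM) followed, and osteoclasts were at 5.40 CPM. The lowest level, 3.03 CPM, was in mature osteoblasts/osteocytes.

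Fgf9 was at 30.2, 34.0, 26.2 and 18.2 CPM in mature osteoblasts/osteocytes (27.2 ± 6.74, 119 UMIs). CT1 had 15.9, 8.27, 8.92 and 34.0 CPM (16.8 ± 12.0), its highest value coming from the library with 118 CT1 nuclei and resting on 16 UMIs, and the ranges of both types overlapped. Both lay wholly above the type that followed, CP6, at 6.55 CPM, and osteoclasts were at 3.14 CPM. Mature osteoblasts/osteocytes were thus the highest type for a receptor, Fgfr1, and for Fgf9.

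Fgf18, a ligand known from cartilage and bone, was low throughout. CP2 had 7.66, 19.4, 10.9 and 11.6 CPM (12.4 ± 4.98) and CT1 11.5 ± 1.12 CPM, and their ranges overlapped. CP3, at 6.34 to 9.01 CPM, lay wholly below CT1 but overlapped with CP2. Osteoclasts were at 0.755 CPM. Fgf8 gave 23 UMIs in all PTB types together. Its highest type, CP3, had 3 UMIs in 6809332, which allows up to 1.29 CPM (95% exact Poisson interval), and for the 6 types with 0 UMIs a limit set at 3 counts allows up to 0.181 (CP2) to 1.57 CPM (mature chondrocytes). Intervals and such limits cover counting error only.

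In the PF/F the receptors fell to other cells. Fgfr1 and Fgfr3 were highest in astroglia, Fgfr4 in granule neuron progenitors (GNP), and Fgfr2 varied little between types (plot of levels in the paraflocculus/flocculus).

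**Figure D3:**
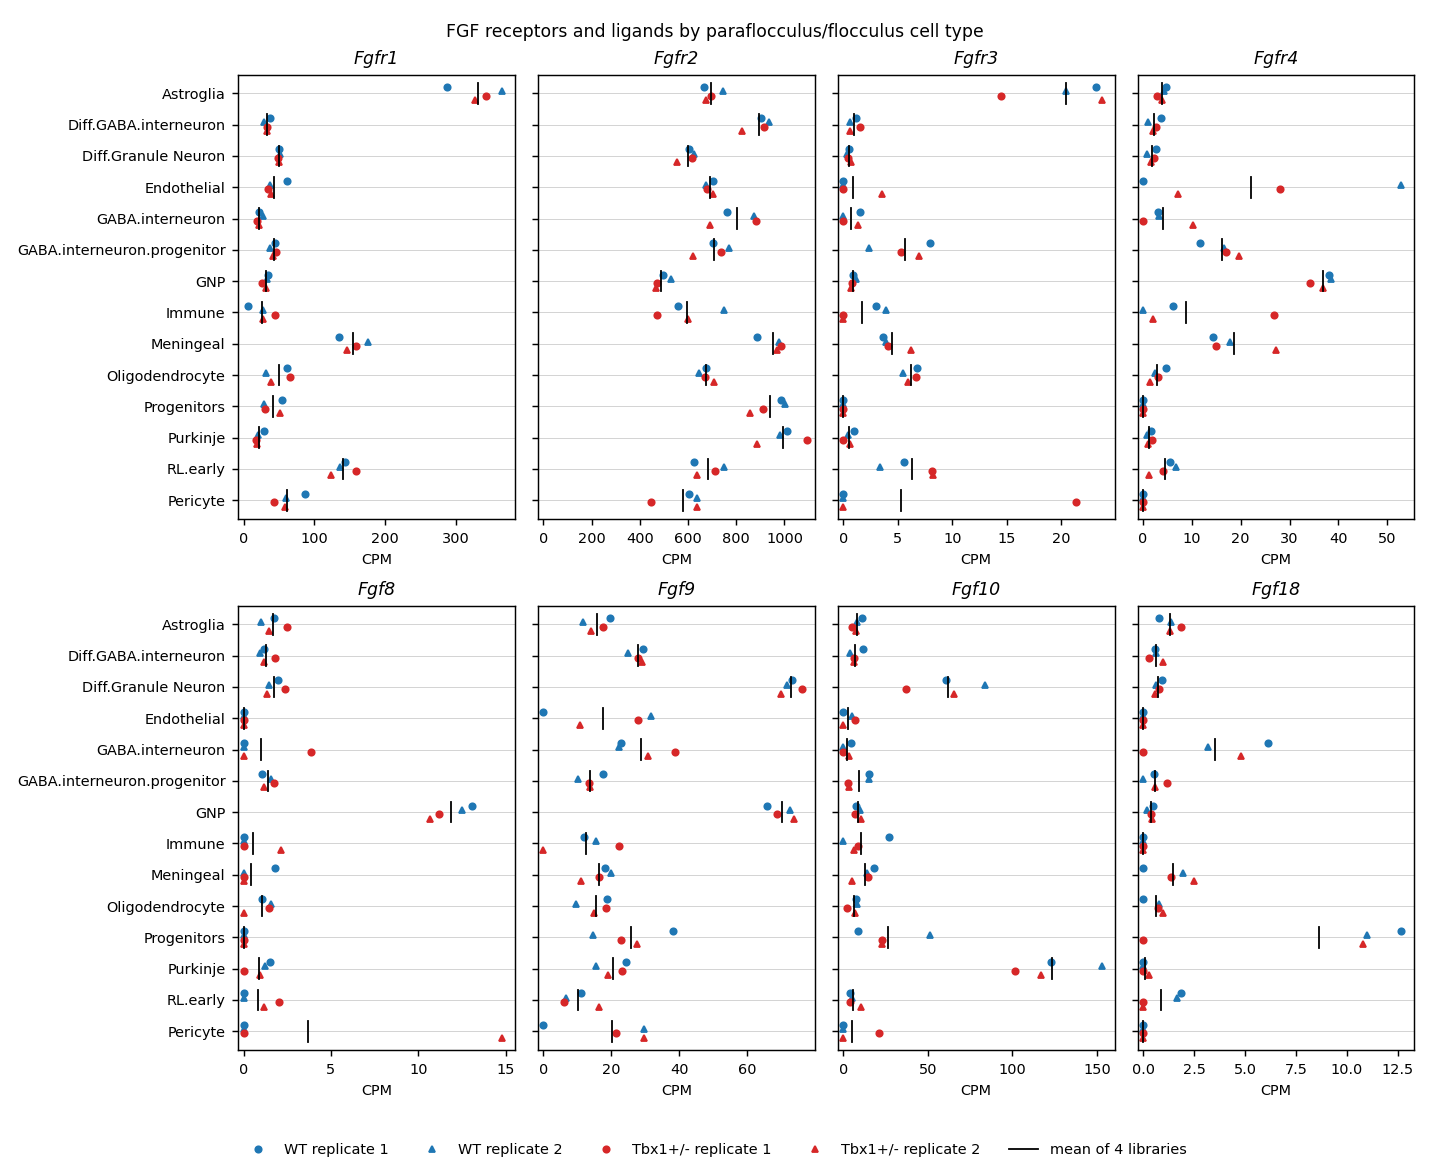
Level of 8 members (CPM) in 14 of the 16 annotated paraflocculus/flocculus cell types, with 1 point per library (circle, replicate 1, triangle, replicate 2, blue, WT, red, Tbx1+/-) and a bar at the mean of 4 libraries. Fgfr1 and Fgfr3 peak in astroglia, Fgfr4 and Fgf8 in GNP, Fgf9 in GNP and differentiated granule neurons and Fgf10 in Purkinje cells, while wide scatter marks types with few UMIs such as endothelial cells and pericytes.

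Fgfr1 was at 288, 365, 342 and 328 CPM in astroglia (331 ± 32.6), which held 56.8% of its UMIs and lay wholly above the other 15 types. Meningeal cells (154 ± 17.6 CPM) and early rhombic lip cells (140 ± 14.8 CPM) overlapped and lay above the rest, Purkinje cells were lowest at 21.5 CPM and immune cells were at 26.4 CPM. Fgfr3 was at 23.2, 20.4, 14.5 and 23.7 CPM in astroglia (20.4 ± 4.21), which held 73.4% of its UMIs. Early rhombic lip cells were next at 6.33 ± 2.32 CPM, and immune cells were at 1.72 CPM on 2 UMIs.

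Fgfr4 in GNP was at 38.1, 38.5, 34.1 and 36.8 CPM (36.9 ± 1.99), and GNP held 65.1% of its UMIs. Endothelial cells came second at 22.0 ± 23.8 CPM on 16 UMIs in all, so their range covered that of GNP, whereas meningeal cells (18.6 ± 5.98 CPM) did not reach it. Immune cells were at 8.76 CPM on 9 UMIs. Without Fgfr2, Fgfr4 took 53.6 ± 1.65% of the receptor UMIs in GNP. Fgfr2 ranged from 489 CPM in GNP to 993 ± 85.9 CPM in Purkinje cells, 2.03-fold, with immune cells at 594 CPM, and the only gap in the order lay below rank 11.

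Among the ligands, Fgf8 was detected mainly in GNP, at 13.1, 12.5, 11.2 and 10.7 CPM (11.9 ± 1.11), with 317 of its 535 UMIs. Pericytes were second at 3.70 CPM on 1 UMI, which put their range (0 to 14.8 CPM) across that of GNP, and immune cells were at 0.530 CPM on 1 UMI. Fgf9 was at 73.4, 71.8, 76.2 and 70.0 CPM in differentiated granule neurons (72.8 ± 2.62) and at 65.9, 72.8, 69.0 and 73.8 CPM in GNP (70.4 ± 3.63). These stages of the granule lineage overlapped, both lay wholly above the other 14 types, and immune cells were at 12.5 CPM. GNP divide to form granule neurons.

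Fgf10 was highest in Purkinje cells, at 123, 153, 101 and 117 CPM (124 ± 21.5), wholly above all 15 other types. Differentiated granule neurons had 60.9, 83.8, 37.0 and 65.4 CPM (61.8 ± 19.3), and immune cells 10.6 CPM on 14 UMIs. In both types the Tbx1+/- library was below the WT library of its batch and replicate 2 above replicate 1. Fgf2 was at 18.6 ± 5.59 CPM in meningeal cells, with pericytes at 19.9 CPM on 4 UMIs and immune cells at 4.87 CPM on 6 UMIs. Fgf18 had 147 UMIs in all types, at most 8.61 CPM in progenitors on 13 UMIs, and 0 UMIs in immune cells, where 3 counts would be 2.34 CPM.

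Genes with the most similar levels across types were named by the highest Pearson r of mean log2(CPM + 1), over 15 PTB types and 13126 genes or 16 PF/F types and 15731 genes. The types share libraries and depth, so r is a description. In the PTB, Fgfr4 was followed most closely, by Slc1a2 (a glutamate transporter, r = 0.968), Otor (a protein secreted in the cochlea, 0.967) and Gpm6a (0.966), and r stayed between 0.922 and 0.965 in single libraries for these genes. Fgfr1 was most like Wdr45 (0.899), Ip6k2 (0.896) and Garem1 (0.893), of which Wdr45 fell to between 0.268 and 0.523 in single libraries. Fgfr2 was most like Dancr (0.881), Mtss2 (0.871) and Porcn (an enzyme that lipid-modifies WNT proteins, 0.870), and Fgfr3 was most like Ddx42 (0.923), 1110038B12Rik (0.912) and Eif2s3x (0.907).

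For the ligands of the PTB, Fgf2 was most like Ccdc102a (0.944), Pkia (0.940) and Nox4 (0.936), and Fgf10 was most like Mannr (0.913), Emx2os (0.905) and Dsc3 (a desmosomal cadherin, 0.902). Fgf9 was most like Ctnna3 (0.841), Grik2 (0.835) and Ubl7 (0.829), and Fgf18 was most like Phactr1 (0.898), Wnt9a (a WNT ligand, 0.896) and Ctnna2 (0.889). In single libraries r of several of these PTB genes was much lower, down to 0.39 for Ctnna3, 0.41 for Ubl7, 0.47 for Ddx42, 0.54 for Eif2s3x and 0.56 for Emx2os. In the PF/F, Fgfr3 was most like Cyp2j9 (0.967), Lrig1 (0.941) and Kcnj10 (0.925), all highest in astroglia. Fgfr1 was most like Gm16159 (0.918), its own antisense partner, then Ppp1r3c (0.890) and Sned1 (0.870). Gm16263, antisense to Fgf10, was second for that gene (0.794) between Lrrc3b (0.802) and Cd47 (0.788). For the remaining PF/F members the leading genes were Mgat4c, Cacna1h and Eps8l1 (Fgfr2, 0.807 to 0.889), Eif2s1, Ppa2 and Cdc26 (Fgfr4, 0.905 to 0.920), Slc13a3, Gm47865 and Gm13470 (Fgf2, 0.914 to 0.944), Itpa, Bclaf3 and Gm12116 (Fgf8, 0.790 to 0.821) and Ppp2r2c, Sphkap and Srcin1 (Fgf9, 0.855 to 0.880). In single libraries some of these PF/F values were far lower, with r down to -0.082 for Cd47, 0.091 for Itpa, 0.10 for Gm13470 and 0.22 for Ppa2.

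The genotypes were compared in each type by edgeR's quasi-likelihood test on summed UMIs, with Benjamini-Hochberg adjustment over all genes of a type. A gene was called at an adjusted p under 0.05 and a change above 1.5-fold. The test had no batch term, so batch differences shared by both genotypes added to the spread in its SEs and p-values. No member was called in the PTB types (0 of 91 tests of members that passed the filter on low counts), where 0% of all 187198 tests were called. None of the 91 had an unadjusted p under 0.05, which 1.81% of all tests had, and DESeq2 called 0 and gave 0 with p under 0.05. With the replicate number as a block, 2 of the 91 (2.20%) had an unadjusted p under 0.05, against 3.93% of all tests, and none was called. The filter kept Fgfr1, Fgfr2 and Fgfr3 in all 15 types, Fgfr4 and Fgf2 in 12, Fgf10 in 11, Fgf9 in 7, Fgf18 in 4 and Fgf8 in 0. The median log2 fold change of Tbx1+/- over WT was 0.02 over the members and 0.00 over all tests.

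**Figure D4:**
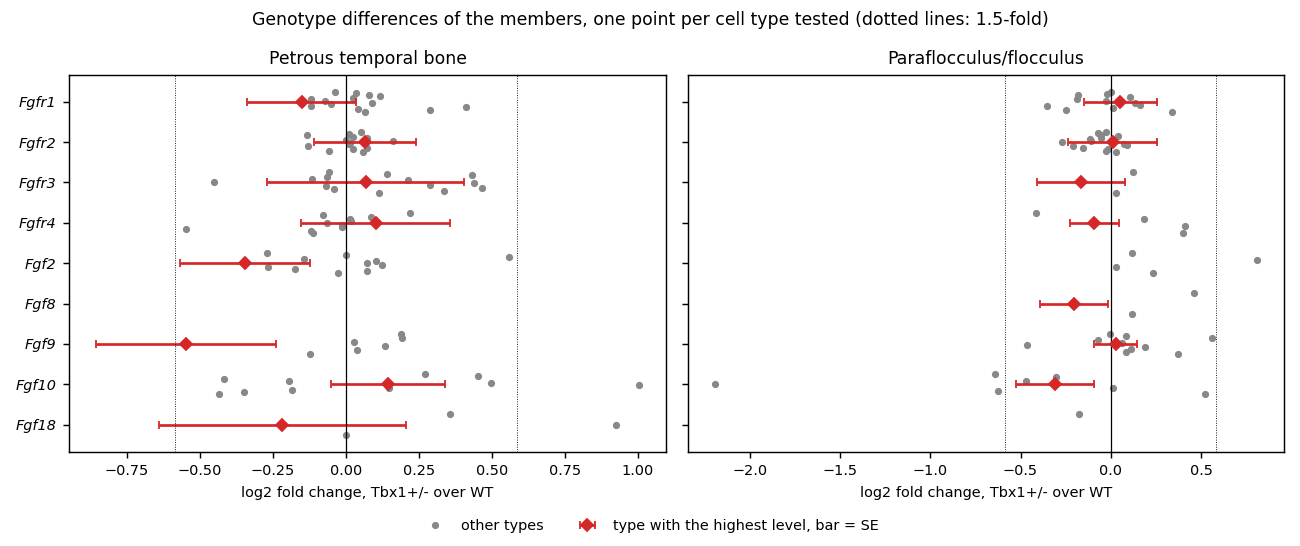
Log2 fold change of Tbx1+/- over WT for each member, with 1 point per cell type in which it passed the filter on low counts (left, petrous temporal bone, right, paraflocculus/flocculus). Red diamonds with SE bars mark the type with the member's highest level, dotted lines mark 1.5-fold, and no point was called. The lowest point, Fgf10 in GABA interneuron progenitors (-2.19), passed the filter through the WT libraries alone.

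In the type where each member was highest, the fold changes of the 8 PTB members tested lay between -0.55 and 0.14 with SEs of 0.17 to 0.42. For Fgfr4 in CP5 the log2 fold change was 0.10 ± 0.26 (SE), for Fgfr1 in mature osteoblasts/osteocytes -0.15 ± 0.19, for Fgfr3 in mature chondrocytes 0.07 ± 0.34 and for Fgfr2 in CT3 0.07 ± 0.17. Fgf10 in CT1 changed by 0.14 ± 0.20 and Fgf2 in CT1 by -0.35 ± 0.22. Fgf9 in mature osteoblasts/osteocytes had the largest difference, -0.55 ± 0.31 (edgeR adjusted p = 0.999), its Tbx1+/- values of 26.2 and 18.2 CPM lying below the WT values of 30.2 and 34.0 CPM. Intervals of this width do not exclude moderate differences.

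Sums over CT1 to CT4 and over CP1 to CP6 gave 16 tests of members with 0 called (0% of 33783 tests of all genes), 0 with an unadjusted p under 0.05 by edgeR or DESeq2, and log2 fold changes of -0.41 to 0.16. In whole tissues, 17 member tests gave 0 called (0% of 41006), 0 with an unadjusted p under 0.05 by either tool, and log2 fold changes of -0.45 to 0.28. In such sums, fewer cells of a type and less RNA per cell cannot be told apart. Fgf10 in the PTB as a whole, at 22.5, 15.8, 22.0 and 10.4 CPM, was lowest in the library with the fewest CT1 nuclei (1.84%). The share of receptor UMIs taken by a single receptor differed between genotypes by at most 0.546 percentage points in either tissue, with two-sided exact permutation p of 0.67 to 1, where 0.33 is the smallest p that 2 against 2 libraries can give.

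In the PF/F types, 64 member tests gave 0 calls, against 0.000598% of all 167207 tests (1 call, or 60 with the replicate block). An unadjusted p under 0.05 was found for 2 of the 64 (3.13%, against 1.32% of all tests), both of them Fgf10, and for 1 by DESeq2. In GABA interneuron progenitors Fgf10 was at 14.9, 15.0, 2.94 and 3.46 CPM, on 28, 19, 5 and 6 UMIs. Both Tbx1+/- libraries were below both WT libraries, but this was the 1 test of the 64 in which a member reached the filter's level (5.83 CPM in 2 libraries) through 1 genotype alone, so the filter itself favoured a difference. With no filter on low counts the log2 fold change was -2.18 ± 0.38 (SE; edgeR unadjusted p = 0.000257, adjusted p = 0.995). In astroglia it was at 11.3, 8.31, 5.09 and 7.33 CPM, again without overlap (-0.64 ± 0.28, edgeR adjusted p = 1.00). Immune cells of the same tissue had 10.6 CPM of Fgf10, between these WT and Tbx1+/- levels or near them, and the part of free RNA in these values was not tested. Of the 8 tests of Fgf10 in PF/F types, 6 were lower and 2 higher in Tbx1+/-. In GNP its log2 fold change was 0.01 ± 0.28 (SE), on 47, 58, 54 and 70 UMIs.

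Where Fgf10 was high in the PF/F, its log2 fold change was -0.31 ± 0.22 in Purkinje cells and -0.47 ± 0.31 in differentiated granule neurons, neither called. With the replicate number as a block, differentiated granule neurons gave -0.50 ± 0.09 (SE; edgeR unadjusted p = 7.02e-05, against 0.176 without it). The adjusted p was 0.300, still not called. With the block, 5 of the 64 member tests (7.81%, against 4.28% of all tests) had an unadjusted p under 0.05 by edgeR, 4 of them Fgf10. These 4 are 1 gene in the same libraries, and 1 of them, in GABA interneuron progenitors, passed the filter through WT alone. Within batch 1 and batch 2, Tbx1+/- over WT was 0.827 and 0.767 in Purkinje cells and 0.608 and 0.780 in differentiated granule neurons. Over the whole PF/F, Fgf10 was at 32.8, 46.1, 21.5 and 35.2 CPM, lower in Tbx1+/- within both batches although the Tbx1+/- replicate 2 library lay above WT replicate 1 (log2 -0.45 ± 0.29, SE, edgeR unadjusted p = 0.171, adjusted p = 1.00). With the block the value was -0.48 ± 0.08 (edgeR unadjusted p = 0.000294, adjusted p = 1.00), not called. For the receptors in their highest PF/F types the values were 0.05 ± 0.20 for Fgfr1 in astroglia, -0.17 ± 0.25 for Fgfr3 in astroglia and -0.09 ± 0.14 for Fgfr4 in GNP (log2, SE). Fgf8 in GNP was at -0.20 ± 0.19 and Fgf9 in differentiated granule neurons at 0.03 ± 0.12.

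Both Tbx1+/- libraries lay on 1 side of both WT libraries in 22 of the 91 member and type pairs of the PTB, 14 higher and 8 lower (24.2%, against 26.7% of all tests), and in 19 of the 64 pairs of the PF/F, 5 higher and 14 lower (29.7%, against 24.4%). Of the 14 lower PF/F pairs, 4 were Fgf10 and 4 were Fgfr1, each a single gene in the same libraries. The Fgf10 pairs include GABA interneuron progenitors, where the gene passed the filter through WT alone, so the filter favoured a difference. With TMM scaling the PF/F split was 8 higher and 11 lower, and with nuclei of at least 2000 genes 8 higher and 15 lower (35.9%, against 26.4% of all tests). No difference between the members' shares and those of all genes was tested. The genotype difference was also compared between tissues, and 0 of 9 members were called in that interaction (0% of 22148 tests), with 0 at an unadjusted p under 0.05 by edgeR or DESeq2 and log2 values of -0.52 to 0.28. The study describes isolating both tissues from its mice. This fit had no term for PTB and PF/F libraries that may share animals, so its SEs and p-values ignore such pairing.

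Feedback inhibitors and target genes of the pathway were measured in the same nuclei. In the PTB the ETS factors Etv4 and Etv5, induced by FGF receptors in many tissues, were highest in CP5, the type with the highest Fgfr4, at 67.6 ± 10.8 CPM and 108 ± 9.87 CPM, against 2.66 and 15.9 CPM in osteoclasts. Etv4 in CP5 lay wholly above CP4, the next type (21.2 to 30.7 CPM). Etv5 in CP5 overlapped with mature osteoblasts/osteocytes (90.2 ± 15.9 CPM), where Fgfr4 was at 5.03 CPM. CP3, second for Fgfr4, was among the 2 highest types of neither gene. Il17rd, a membrane inhibitor of the pathway, was highest in CP3 (107 ± 9.55 CPM) and CP4 (103 ± 11.9 CPM), and the decoy receptor gene Fgfrl1 in mature chondrocytes (27.5 ± 12.3 CPM). The inhibitors Spry4 (15.0 ± 3.80 CPM) and Dusp6 (15.3 ± 3.98 CPM) were highest in the hypertrophic chondrocyte/osteoblast type, Spry2 in CT1 (16.4 ± 2.12 CPM), Spry1 in osteoclasts (33.3 ± 5.04 CPM) and Etv1 in CT2 (157 ± 38.4 CPM). Of these 7 genes, Spry1 alone had its highest type wholly above the next (CP3, 4.16 to 14.9 CPM), and for the other 6 the ranges of the 2 highest types overlapped, although Spry2 and Spry4 were each higher in the first type than in the next in 4 of 4 libraries. In the PF/F, astroglia, the type with the highest Fgfr1 and Fgfr3, had the highest Etv5 (133 ± 16.5 CPM), Il17rd (112 ± 3.05 CPM), Spry2 (84.3 ± 19.3 CPM) and Etv4 (72.6 ± 9.39 CPM), each wholly above the next type. The other 5 genes were highest elsewhere, Spry1 (27.9 ± 5.51 CPM) and Fgfrl1 (10.1 ± 0.687 CPM) in oligodendrocytes, Spry4 (61.6 ± 17.1 CPM) and Etv1 (135 ± 20.3 CPM) in pericytes and Dusp6 (34.1 ± 10.1 CPM) in endothelial cells. Their levels in astroglia were 18.6, 5.64, 5.24, 63.7 and 7.33 CPM in that order. Of these 5 peaks, 4 overlapped with the next type, and that of Spry4 did not but rested on 2, 3, 4 and 4 UMIs.

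None of the 67 other pathway genes (other ligands, intracellular homologues, co-receptors, heparan sulfate enzymes, adaptors, inhibitors and targets) was called in either direction between genotypes, in types, sums or the interaction. In the PTB types 54 of them gave 711 tests with 0 called and 15 at an unadjusted p under 0.05 by edgeR (2.11%, against 1.81% of all tests), and in the PF/F types 61 gave 626 tests with 0 called and 9 at an unadjusted p under 0.05 (1.44%, against 1.32%). Their median log2 fold change was 0.00 in both tissues, as for all genes. DESeq2 called none of them either. With the replicate number as a block, 1 of them, Sulf1, an enzyme that edits heparan sulfate, was called in early rhombic lip cells (log2 fold change 1.10, edgeR adjusted p = 0.0171, against 1.00 without the block), 1 of the 60 calls over all genes of the PF/F types that the block gave.

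Barcodes of the PTB outside the annotation, with at least 1000 detected genes and at least 3 UMIs of 1 marker list, were set beside the annotated types (plot of marker groups outside the annotation). These groups come from markers and not from the deposited annotation, and the otic epithelium group held 499 to 737 barcodes per library and the neuron group 443 to 608. The study removed low-quality nuclei, and these groups were not limited to barcodes that it kept, so they may hold some that it removed. Fgf10 was at 150, 191, 171 and 181 CPM in the otic epithelium group (173 ± 17.6) and at 111, 78.5, 165 and 137 CPM in the neuron group (123 ± 37.0). In each of the 4 libraries the otic group lay above CT1. Fgf9 was at 44.3 ± 21.8 CPM in the epithelial group, 34.5 ± 4.53 in neurons, 34.2 ± 7.87 in otic epithelium and 28.4 ± 2.04 in glia of nerve, and these ranges overlapped with the 18.2 to 34.0 CPM of mature osteoblasts/osteocytes. Fgfr4 did not exceed 51.0 CPM in any of these groups as a mean, reached in the epithelial group.

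**Figure D5:**
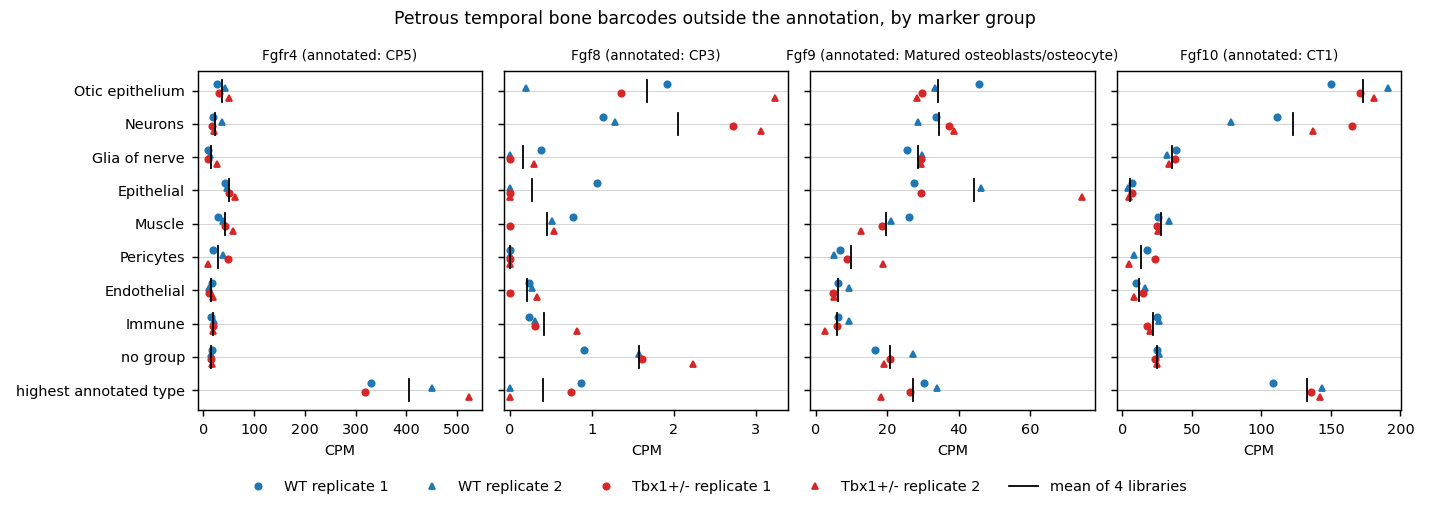
Level (CPM) of Fgfr4, Fgf8, Fgf9 and Fgf10 in petrous temporal bone barcodes outside the annotation, grouped by marker genes, with 1 point per library (circle, replicate 1, triangle, replicate 2, blue, WT, red, Tbx1+/-), a bar at the mean of 4 libraries and the highest annotated type as the last line. Fgf10 is highest in the otic epithelium group (173 CPM), and Fgfr4 is far lower in each group than in CP5 (406 CPM).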

How the data were processed

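Nuclei were profiled by single-nucleus RNA sequencing (10x Genomics 3′ chemistry), and per the labels and the study's methods reads were mapped to mm10 with Cell Ranger 7.0.0 in intron mode. The deposited values were UMI counts, not normalized, for each gene in each barcode, and the authors also deposited a cell type label per nucleus. The ambient RNA correction of the study was not in these counts, nor is a doublet step described, so leaving out the 8% of nuclei with the most UMIs was an alternative. The annotation release used for counting is not given in the sources used here, and 99.8% of feature IDs were found in GENCODE vM21. Counts were summed per library and cell type. The tests were edgeR 4.0.16 (glmQLFTest, TMM, filterByExpr) and DESeq2 1.42.0 in R 4.3.3, each type with at least 10 nuclei per library being fitted alone, and other values came from Python 3.11.15 with numpy 2.4.6, pandas 2.3.3 and scipy 1.17.1. SEs of the edgeR fits were computed from the log2 fold change and the test statistic. With the replicate block little spread within a gene was left to estimate, so its SE and p lean on other genes. The fits were tested on simulated counts with known large folds and no batch effect, which does not cover smaller changes or batch differences. The alternatives were RLE size factors, no filter on low counts, DESeq2, a replicate block, nuclei with at least 2000 detected genes, TMM-scaled levels and leaving out each library.

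Replicate numbers mark separate batches of animals per the study, and the deviations of same-numbered WT and Tbx1+/- libraries from their group means correlated with r = 0.576 over 10595 genes in the PTB and r = 0.839 over 10859 genes in the PF/F. The members and gene lists were chosen with earlier results of these data known. Named genes were the 9 members, 9 feedback and target genes, any pathway gene called, and for each member with at least 10 CPM in 1 type the 3 genes of highest r. No per-sample column was left unused. The values of 2 PF/F cell types are not reported here.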

Additional observations from a re-analysis of the deposited data

Results flagged for a closer look

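Fgf8, near 0 in all annotated PTB types, had a mean of 2.05 CPM in the neuron group of PTB barcodes outside the annotation (1.14, 1.28, 2.72 and 3.07 CPM, 45 UMIs), above the highest annotated type, CP3, in each of the 4 libraries. The counts were few and the Tbx1+/- values were the higher ones, a difference that was not tested. Fgf10 had a mean of 173 CPM in the otic epithelium group outside the annotation, above CT1 (133 CPM) in each of the 4 libraries.

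The genotype differences of Fgf2 and Fgf18 in whole tissues had opposite directions, lower in Tbx1+/- in the PTB and higher in the PF/F within both batches. The interaction of genotype and tissue was -0.50 ± 0.25 (log2, SE; edgeR unadjusted p = 0.083, adjusted p = 1.00) for Fgf2 and -0.52 ± 0.32 (unadjusted p = 0.14, adjusted p = 1.00) for Fgf18, so neither passed the test. The level of Fgf2 was 16.3, 14.4, 14.5 and 11.8 CPM in the PTB and 2.66, 3.10, 3.37 and 3.53 CPM in the PF/F. That of Fgf18 was 3.73, 4.03, 3.38 and 3.09 CPM and 0.806, 0.716, 0.819 and 0.983 CPM. In the PF/F Fgf18 had 34, 27, 34 and 52 UMIs. The replicate 1 libraries thus had equal counts, and their CPM differed only through library size. CT1, where both genes were high, held 13.2%, 5.55%, 10.1% and 1.84% of the annotated PTB nuclei. The part of this share in the whole-bone levels was not tested.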

How the results depend on the processing

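No member was called under any of 14 alternative settings (2138 tests), the lowest adjusted p being 0.0915 for Fgf10 in differentiated granule neurons without WT replicate 1 (log2 -0.71). With 1 library left out, 1 library stood against 2, so the spread came from the other genotype and the lone library was assumed to vary alike. With the replicate block, where numbers mark batches, no member was called either, the lowest adjusted p being 0.300 for Fgf10 in differentiated granule neurons (log2 -0.50). An unadjusted p under 0.05 by edgeR was then found in 2 member tests of the PTB types (Fgf2 and Fgfr1), 1 of CT and CP sums (Fgf2, 6.25% of member tests against 4.8% of all tests), 5 of the PF/F types (Fgf10 in 4 types and Fgf2 in 1), 1 of tissue sums (Fgf10, 5.88% against 4.07%) and 1 of the interaction (Fgf2, 11.1% against 3.67%). Without the block these were 0, 0, 2 (both Fgf10), 0 and 0 tests. Over all genes the shares without the block were 0.864% in CT and CP sums, 0.771% in tissue sums and 0.899% in the interaction. The Fgf10 tests of the PF/F types include GABA interneuron progenitors, where the filter favoured a difference. All-gene calls were not stable. In the PTB types they rose from 0 to 71 with the replicate block, to 96 without a filter and to 29 to 613 with 1 library left out. In CT and CP sums they rose from 0 to 24 with the block and to 1 without a filter. In the PF/F types they went from 1 to 60 with the block, 38 without a filter, 2 by DESeq2, 0 without the 8% of nuclei with most UMIs and 21 to 250 with 1 library left out. The only pathway gene called was Sulf1 (an enzyme that edits heparan sulfate) in early rhombic lip cells, 1 call with the replicate block (log2 1.10, adjusted p = 0.0171, against 0.360 to 1.00 under the others). The cause of these shifts was not tested.

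Mean levels moved by more than 1 SD with TMM scaling for Fgfr1 in mature osteoblasts/osteocytes (1015 CPM), Fgfr2 (1172) and Fgf10 (147) in Purkinje cells and Fgf9 in differentiated granule neurons (87.9), with nuclei of at least 2000 genes for Fgfr1 in astroglia (278) and Fgfr4 (30.5) and Fgf8 (10.6) in GNP, and without the nuclei with most UMIs for Fgfr2 (1144) and Fgf10 (149.9) in Purkinje cells.

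With 1 library left out, genotype differences in receptor shares of the PTB ran from -0.520 to 1.61 percentage points for Fgfr1 and -1.67 to 0.909 for Fgfr2. For Fgfr3 they ran from -0.196 to 0.471 and for Fgfr4 from -0.963 to 0.356. In the PF/F they ran from 0.033 to 0.729 for Fgfr1, -0.920 to 0.200 for Fgfr2 and -0.189 to 0.0906 for Fgfr3. For Fgfr4 in the PF/F they ran from -0.0666 to 0.123, where the share without Fgfr2 (chosen after seeing the data) gave -0.0165. Uncalled log2 fold changes also changed sign, with ranges of -0.051 to 0.20 for Fgfr2 in CT3, -0.31 to 0.58 for Fgfr3 in mature chondrocytes, -0.31 to 0.43 for Fgfr4 in CP5, -0.070 to 0.34 for Fgf10 in CT1, -0.78 to 0.56 for Fgf18 in CP2, -0.12 to 0.25 for Fgfr1 in astroglia, -0.12 to 0.13 for Fgfr2 in Purkinje cells, -0.58 to 0.14 for Fgfr3 in astroglia and -0.026 to 0.062 for Fgf9 in differentiated granule neurons. Without changing sign, those of Fgf9 (-0.82 to -0.33) and Fgfr1 (-0.23 to -0.069) in mature osteoblasts/osteocytes, Fgf10 in Purkinje cells (-0.51 without WT replicate 1, -0.081 without WT replicate 2) and Fgfr4 in GNP (-0.14 to -0.057) moved by more than 1.5 times. Nuclei of at least 2000 genes gave -0.014 for Fgfr1 in astroglia, 0.15 for Fgfr4 in GNP and -0.0075 for Fgf9 in differentiated granule neurons, and leaving out the nuclei with most UMIs gave -0.00020 for Fgfr2 in Purkinje cells. Under those 2 settings, types left with fewer than 10 nuclei in a library were not fitted.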
